A study of Mus musculus with 4 samples.

Results

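Goblet cells fill the colonic crypts with mucus, and the set described here holds 10 genes of that cell: 5 transcription factors of its formation and secretory machinery, and 5 genes of the secretory cell itself. They were listed by name, with earlier results of these data known, as Spdef, Atoh1, Gfi1, Creb3l1, Creb3l4, Capn9, Bcas1, Sytl2, Best2 and Muc2. Every gene probe whose accession leads to 1 of these symbols was taken. Of the 10 genes, 8 were matched to a probe through RefSeq accessions, and these 8 were tested among 20825 genes and transcripts in all. Best2 and Muc2 were not matched, and their expression was not analysed here.

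The RNA came from colonic mucosa of C57BL/6 mice of 2 ages, postnatal day 90 (P90, adult) and postnatal day 30 (P30, shortly after weaning). Each of 4 two-colour arrays, called a, b, e and k as in the labels, compared 1 P90 RNA with 1 P30 RNA directly, and a letter in brackets after a value names its array. The dyes were exchanged on array e, where P90 carried Cy5, while on the other 3 arrays it carried Cy3. The comparisons are labelled independent, but nothing states that every RNA came from a different animal, so p-values reflect the spread among 4 pairs, some of it perhaps technical. The mucosa was sheared off with a glass slide and holds many cell types. For every gene below, a different number of goblet cells and a different amount of RNA per goblet cell cannot be told apart.

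As background, the intestinal epithelium divides into absorptive and secretory cells through Notch signalling. Atoh1, a basic helix-loop-helix factor, starts the secretory fate, the zinc finger repressor Gfi1 acts after it to favour goblet and Paneth cells over endocrine cells, and the ETS factor Spdef drives the last steps of goblet cell maturation. Creb3l1 and Creb3l4 are transcription factors held in the membrane of the endoplasmic reticulum until they are cut free, and they serve secretory cells. Capn9 is a calcium-dependent protease of the calpain family found in the digestive tract, Sytl2 links Rab27 to the plasma membrane during granule exocytosis, and Bcas1 is a gene of epithelial and myelinating cells. Muc2 is the gel-forming mucin of the colon, and Best2 a bicarbonate-permeable anion channel of colonic goblet cells.

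The promoters below are shown because Spdef is the regulator whose age ratio differed most between the arrays, Atoh1 acts above it, and Capn9 is the member that was above 0 on all 4 arrays. Each stretch covers the 250 bases before the start of the gene, 5′ to 3′ on the strand of the gene, from RefSeq on build GRCm38.p6. Capitals mark the core GGAT that Spdef prefers, read on either strand, so ATCC is its complement. Spdef lies at chr17:27728952-27729201 on the minus strand, Atoh1 at chr6:64728875-64729124 on the plus strand and Capn9 at chr8:124575861-124576110 on the plus strand.
Spdef: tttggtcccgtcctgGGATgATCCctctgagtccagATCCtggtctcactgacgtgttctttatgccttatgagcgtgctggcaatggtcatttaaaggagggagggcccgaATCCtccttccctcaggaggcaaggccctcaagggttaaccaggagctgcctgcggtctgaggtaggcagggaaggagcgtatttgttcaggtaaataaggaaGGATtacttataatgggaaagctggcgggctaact
Atoh1: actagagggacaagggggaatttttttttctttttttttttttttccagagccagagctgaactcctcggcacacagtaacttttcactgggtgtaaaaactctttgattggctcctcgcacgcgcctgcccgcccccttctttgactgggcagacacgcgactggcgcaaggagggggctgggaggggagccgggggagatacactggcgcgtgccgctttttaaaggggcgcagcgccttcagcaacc
Capn9: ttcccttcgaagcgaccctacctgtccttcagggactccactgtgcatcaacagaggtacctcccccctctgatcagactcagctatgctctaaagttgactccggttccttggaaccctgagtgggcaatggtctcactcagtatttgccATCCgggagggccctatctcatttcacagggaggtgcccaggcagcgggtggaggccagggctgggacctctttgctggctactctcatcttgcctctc

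Within windows of 300 bases (250 before and 50 after the start), Spdef held GGAT 5 times, Capn9 1 time and Atoh1 at no position. Gfi1 had 2 windows, with no GGAT in either, while the 3 windows of Creb3l4 held it 5, 2 and 4 times and the window of Muc2 held it 4 times. Windows were matched for 6 of the 10 genes, 9 windows in all, and for Creb3l1, Bcas1, Sytl2 and Best2 none was matched. GGAT occurred in 6 of these 9, against 79.6% of 32851 promoter windows. The E-box CAGCTG of basic helix-loop-helix factors occurred in 1 of the 9, that of Muc2, against 16.3% of all windows. The ACGTG core of the CREB3 family occurred in 1 of the 9, that of Spdef, against 19.6%. The ETS core GGAA was in 9 of 9 (96% of all windows) and the Gfi1 core AATC in 7 of 9 (73.1%). All motifs were read on both strands, where AATC and GGAT share the letters ATC (or GAT), so their matches can overlap. In Spdef the AATC matches at -139 and -34 bases from the start overlap the GGAT matches at -138 and -35. These are matches of letters only.

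Each array carried 43379 gene spots. On the P90 side 55.6% to 69.3% of them were well above background, and on the P30 side 64.6% to 71.0%. Saturated gene spots numbered 57 to 304 for P90 and 211 to 374 for P30. All 8 members were well above background in both channels on all 4 arrays, and none of their spots was saturated. Array b went against the others over all genes: its log2 ratios correlated at r = -0.31 with array a, -0.27 with array e and -0.19 with array k, while a, e and k correlated with each other at 0.31 to 0.60. The direction given by the labelled dyes was kept for array b, and values with its sign turned are given where they change a direction. No gene of the 20825 passed an adjusted p of 0.05 in limma with Benjamini-Hochberg adjustment (0%, smallest adjusted p = 0.617), and 1645 genes (7.9%) had an unadjusted p below 0.05.

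None of the 8 goblet cell genes differed between P90 and P30 beyond the spread between the 4 arrays. None passed the adjusted threshold, against 0% of all genes, and none had an unadjusted p below 0.05, against 7.9% of all genes (2.59% higher and 5.31% lower at P90). Their mean log2 ratios ran from -0.031 for Sytl2 to 0.58 for Creb3l1, that is from 0.979 to 1.49 in fold. The mean was above 0 for 6 of the 8, against 45.6% of all genes, and below 0 for 2, against 54.4%. Of the 8, 5 were above 0 on at least 3 arrays (Atoh1, Gfi1, Creb3l1, Capn9 and Bcas1), against 30.8% of all genes, and Capn9 alone was above 0 on all 4, against 6.15%. None was below 0 on all 4, against 7.98% of all genes.

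**Figure D1:**
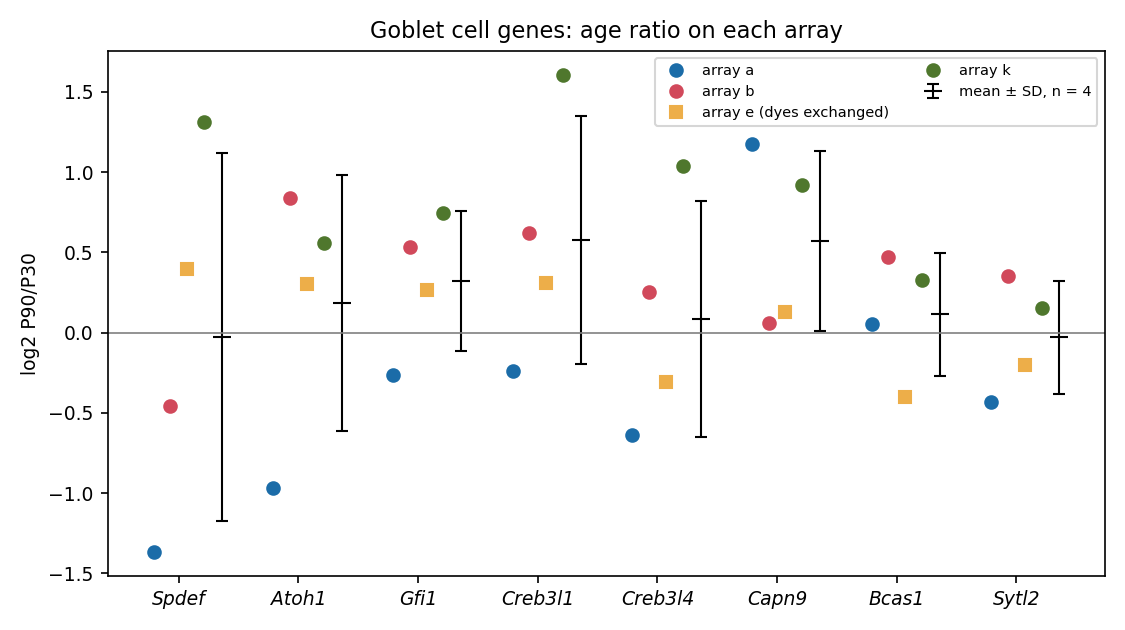
The log2 ratio of P90 over P30 (y axis) of each of the 8 goblet cell genes (x axis) on each array, with circles for arrays a, b and k, squares for the dye swap e, and the mean ± SD of 4 arrays in black. Spdef spread from -1.37 to 1.31, whereas Capn9 was above 0 on every array.

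Spdef, the maturation factor, had no common direction. Its log2 P90/P30 was -1.37 (a), -0.46 (b), 0.40 (e) and 1.31 (k). The 4 values lay on both sides of 0 in equal number, and the lowest and the highest differed in sign at about the same size. The mean was -0.029 ± 1.15 (SD, n = 4), a fold of 0.980, with limma's 95% interval of the mean from -1.09 to 1.04 (limma adjusted p = 0.995). A mean of either sign within that interval is compatible with the 4 arrays. The interval is not adjusted for the number of genes and sets no limit of detection. The mean was above 0 under 9 of 18 processing alternatives, among them array b turned (0.20).

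On the scale of normalised log2 signal, Spdef at P30 was 12.64 (a), 13.38 (b), 13.33 (e) and 12.14 (k). At P90 it was 11.27 (a), 12.93 (b), 13.73 (e) and 13.45 (k). The P30 level on array k and the P90 level on array a were the lowest of their ages, and the groups overlapped. The SD of the level was 1.10 at P90 and 0.59 at P30.

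Atoh1, which starts the secretory fate, was lower at P90 on array a, with a log2 ratio of -0.97, and higher on the others, with 0.84 on b, 0.30 on e and 0.56 on k. The mean was 0.18 ± 0.80 (SD, n = 4), a fold of 1.13, with an interval from -0.59 to 0.95 (limma adjusted p = 0.922). Its normalised log2 signal at P30 was 10.67, 10.32, 8.96 and 8.55 on arrays a, b, e and k, and at P90 9.70, 11.16, 9.26 and 9.11. The levels on a and b were the higher ones at both ages, with an SD of 0.94 at P90 and 1.03 at P30.

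Gfi1, which acts after Atoh1, had log2 ratios of -0.27 (a), 0.53 (b), 0.26 (e) and 0.74 (k). Like Atoh1 it was below 0 on array a only. The mean was 0.32 ± 0.44 (SD, n = 4), a fold of 1.25, with an interval from -0.16 to 0.80 (limma adjusted p = 0.690). Without array k the mean was 0.18, and without array a 0.51. The normalised log2 signal was 10.52, 10.03, 9.82 and 9.25 at P30 and 10.25, 10.56, 10.08 and 9.99 at P90 on arrays a, b, e and k. Levels at P90 were closer together (SD 0.25) than at P30 (SD 0.53), and the ranges overlapped. With each array centred on its median in place of loess, the mean was below 0 for both Atoh1 (-0.23) and Gfi1 (-0.082), and the median of all genes moved by -0.19. With array b turned, Atoh1 was also below 0 (-0.24).

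Creb3l1, a membrane-bound factor that serves the secretory pathway, had the highest mean of the 8. Its log2 ratio was -0.24 (a), 0.62 (b), 0.31 (e) and 1.61 (k). Array k gave the highest value of any member on any array, and array a the only value below 0. The mean was 0.58 ± 0.77 (SD, n = 4), a fold of 1.49, with an interval from -0.17 to 1.32 (limma adjusted p = 0.654). Without array k the mean was 0.23. The P30 signal on array k, 8.73, was the lowest, against 10.46 on a, 10.82 on b and 9.49 on e. At P90 the signal was 10.23, 11.44, 9.80 and 10.34 on arrays a, b, e and k.

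Creb3l4, its relative in the same family, gave 2 values on each side of 0, with -0.64 (a), 0.25 (b), -0.31 (e) and 1.04 (k). The mean was 0.085 ± 0.73 (SD, n = 4), a fold of 1.06, with an interval from -0.63 to 0.80 (limma adjusted p = 0.968). The signal at P30 was 13.81, 13.78, 13.68 and 12.68 on arrays a, b, e and k, and at P90 13.17, 14.03, 13.36 and 13.72. The P30 level on array k was the lowest of the 4, and the ages overlapped. The mean turned negative under median centring (-0.27), with array b turned (-0.041) and with a dye term (-0.047).

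Capn9, the calpain of the digestive tract, was the member closest to the unadjusted threshold. Its log2 ratio was 1.18 (a), 0.059 (b), 0.13 (e) and 0.92 (k). Arrays a and k were high and arrays b and e near 0, so the common sign rested on 2 small values. The mean was 0.57 ± 0.56 (SD, n = 4), a fold of 1.49, with an interval from -0.0049 to 1.15 (limma adjusted p = 0.627). Without array a the mean was 0.37, and without array b 0.74. At P30 the signal was 10.47, 10.54, 10.28 and 10.11 on arrays a, b, e and k, a narrow range (SD 0.19). At P90 it was 11.64, 10.59, 10.41 and 11.03 (SD 0.55), and the P90 value on array e lay within the P30 range.

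Bcas1 was measured by 2 probes. The brighter, which stands for the gene, had log2 ratios of 0.053 (a), 0.47 (b), -0.40 (e) and 0.33 (k), with a mean of 0.11 ± 0.38 (SD, n = 4) and a fold of 1.08. The interval ran from -0.33 to 0.56 (limma adjusted p = 0.914). The other probe gave 0.014, 0.23, 0.24 and 0.33 on arrays a, b, e and k, with a mean of 0.21 ± 0.14 (SD, n = 4). The probes agreed in sign on a, b and k and disagreed on e, the dye swap. The signal of the brighter probe was 13.76, 13.38, 12.73 and 12.03 at P30 and 13.82, 13.85, 12.33 and 12.36 at P90, higher on a and b at both ages. Its mean was below 0 under median centring (-0.24), with array b turned (-0.12) and with a dye term (-0.058).

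Sytl2, the Rab27 effector of granule exocytosis, had the lowest mean of the 8 and small values throughout. Its log2 ratio was -0.43 (a), 0.36 (b), -0.20 (e) and 0.15 (k). The mean was -0.031 ± 0.35 (SD, n = 4), a fold of 0.979, with an interval from -0.45 to 0.39 (limma adjusted p = 0.985). The signal was 9.97, 8.98, 9.45 and 8.65 at P30 and 9.54, 9.34, 9.25 and 8.81 at P90 on arrays a, b, e and k. The range at P90 lay within the range at P30.

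**Figure D2:**
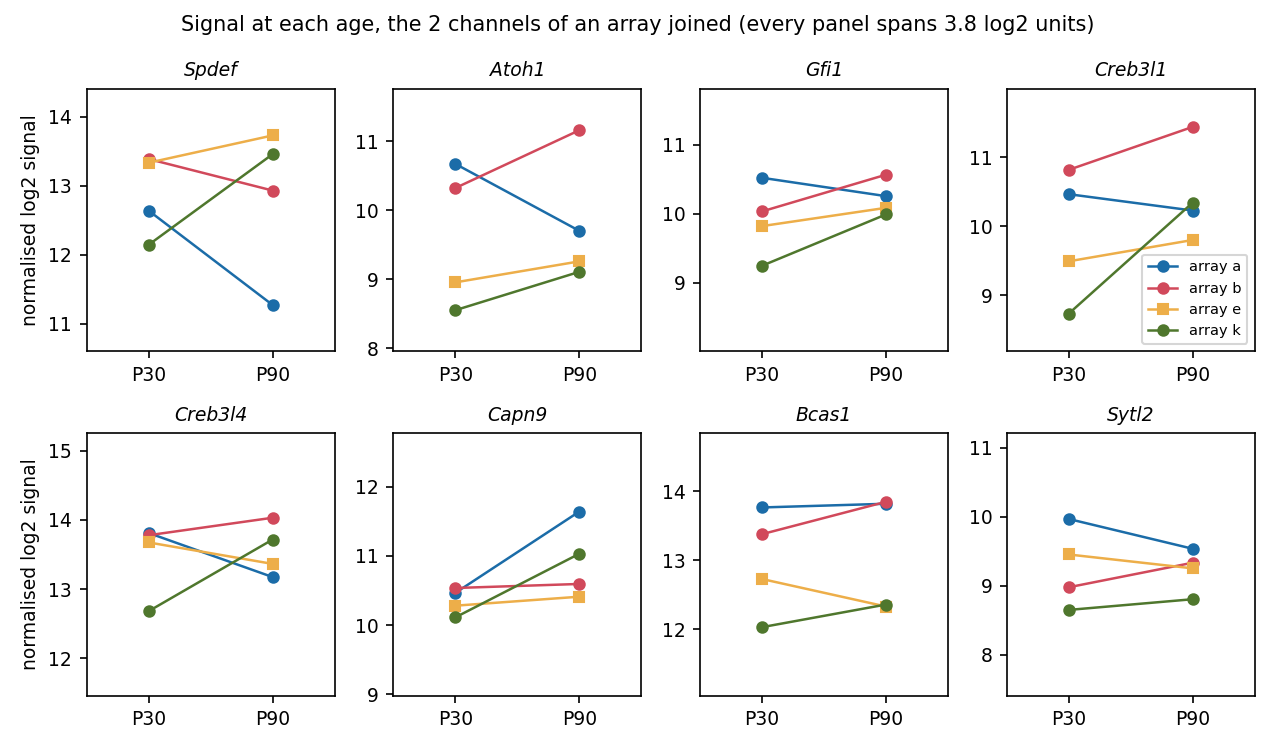
Normalised log2 signal (y axis) of each goblet cell gene at P30 and P90 (x axis), with a line joining the channels of 1 array and each panel spanning the same number of log2 units. Lines of 1 gene cross for Spdef, from 12.64 down to 11.27 on array a and from 12.14 up to 13.45 on array k, and Capn9 slopes upward on all 4 arrays.

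The members as a group varied from array to array. On array a their median log2 ratio was -0.35, with 2 of 8 above 0 (Capn9 and Bcas1), and the values ran from Spdef, the lowest, to Capn9, the highest, over 2.54 log2 units. On array b the median was 0.41 with 7 of 8 above 0, all but Spdef, over a range of 1.29. On array e it was 0.20 with 5 of 8 above 0, from Bcas1 to Spdef over 0.79. On array k it was 0.83 with 8 of 8 above 0, from Sytl2 to Creb3l1 over 1.45. Array a was thus the only array with a member median below 0, and array k the only one with every member above 0. On array k the P30 signal was also the lowest of the 4 P30 signals for 8 of 8 members, as it was for 22.3% of all genes tested.

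The median of all genes lay between -0.041 and -0.0042 on the 4 arrays, where loess places it. The members' SD on an array was 0.76, 0.40, 0.32 and 0.49 on a, b, e and k, and that of all genes 0.65, 0.53, 0.54 and 0.50. Over the array means, the median of the 8 members was 0.15, against -0.020 for all genes. Leaving out 1 array at a time gave a member median from 0.049, without array k, to 0.39, without array a. Under median centring it was -0.24 with 2 of 8 members above 0, and relative to the median of all genes it was -0.023 with 3 of 8 above that median.

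Spdef differed from the other members in both directions, depending on the array. Its log2 ratio minus that of Atoh1 was -0.40 (a), -1.29 (b), 0.091 (e) and 0.76 (k) (mean -0.21 ± 0.86 SD, n = 4). From Gfi1 it differed by -1.10, -0.99, 0.13 and 0.57 (mean -0.35 ± 0.83). From Capn9 it differed by -2.54, -0.51, 0.27 and 0.39 (mean -0.60 ± 1.36), the widest spread of the 7 pairs. Spdef was below all 7 others on arrays a and b and above all 7 on e. On k it was above 6 and below Creb3l1. The mean difference was smaller than its SD for 6 of the 7 pairs, and for Creb3l1 it was -0.60 ± 0.60, with -1.13, -1.08, 0.086 and -0.30 on arrays a, b, e and k.

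The genes with 4 array values nearest to those of Spdef, by Euclidean distance over 13907 named genes measured on all arrays, were Nr4a1 at 0.606, Mmp7 at 0.672, Prmt1 at 0.731, Rap1gap at 0.850 and Nkain1 at 0.879. Nr4a1, an immediate-early nuclear receptor gene, had log2 ratios of -1.11, 0.030, 0.26 and 1.09 on arrays a, b, e and k. Among the members, Creb3l4 came nearest at rank 96 (distance 1.27), followed by Atoh1 at rank 557, Gfi1 at 675, Creb3l1 at 684, Sytl2 at 1922, Bcas1 at 6742 and Capn9 at 11733. Ern2, the endoplasmic reticulum stress sensor of mucus-secreting epithelium, stood at rank 14 (distance 1.02), with -0.93 (a), 0.29 (b), -0.075 (e) and 1.04 (k). Ern2 was singled out after its values were seen. The distance rests on 4 points that share the same arrays, and it is given as a description.

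Other goblet cell genes were set beside the members, by lists of genes chosen by role. In none of the lists did a gene pass the adjusted threshold, against 0% of all genes, so their values are given as measured. Of 12 goblet cell products and folding genes, all tested, 6 were saturated on at least 3 arrays in a channel and have no usable ratio: Tff3, Clca1, Zg16, Fcgbp, Agr2 and Guca2a. Of the 6 with values, 4 had a mean above 0 and 2 below. At an unadjusted p below 0.05 stood Spink4, a peptide of goblet cells, and no other, that is 1 of 6 lower at P90, against 5.31% of all genes. Its log2 ratio was 0.0090 (a), -1.03 (b), -1.07 (e) and -0.67 (k) (mean -0.69 ± 0.50 SD, limma adjusted p = 0.617). The antimicrobial products Retnlb (1.64, -3.35, -1.27 and -0.14 on a, b, e and k) and Ang4 (1.94, -0.87, -0.88 and 1.10) were named after their values were seen, and both had arrays on either side of 0. The list's array medians were -0.065, -0.60, -0.54 and 0.90 on a, b, e and k.

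Mucin O-glycosylation adds sugar chains to mucin. Of 14 listed genes, 12 were tested, 3 with a mean above 0 and 9 below (median -0.14), against 54.4% of all genes below 0. Of the 12, 1 had an unadjusted p below 0.05, lower at P90, against 5.31% of all genes. That was Slc35a1, the transporter of CMP-sialic acid into the Golgi, at -0.62 ± 0.61 (SD, n = 4, limma adjusted p = 0.627), while C1galt1c1, the chaperone of the core 1 enzyme, was at -0.85 ± 1.30. The transferases Galnt10 and Galnt12, the brightest of the list, were at 0.22 ± 0.63 and -0.18 ± 0.51. The array medians of the list were -0.66 (a), 0.44 (b), -0.51 (e) and -0.14 (k), so on array b it stood above 0 and on the others below.

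Of 18 genes of secretory lineage choice and Notch signalling, 18 were tested and 17 had usable ratios, since Klf4 was saturated. 7 had a mean above 0 and 10 below (median -0.082), and 2 had an unadjusted p below 0.05, both higher at P90, against 2.59% of all genes. Foxa3, a forkhead factor of endoderm, was at 0.17, 0.32, 0.78 and 1.10 on arrays a, b, e and k (mean 0.59 ± 0.43 SD, n = 4, limma adjusted p = 0.617). Gfi1b, the paralog of Gfi1 and in the gut a tuft cell gene, was at 0.98, -0.076, 0.69 and 0.58 (mean 0.54 ± 0.44 SD, n = 4, limma adjusted p = 0.624). Foxa2 was at -0.25 ± 0.41.

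Of 13 genes of granule exocytosis, the step in which Sytl2 acts, 11 were tested, 8 with a mean above 0 and 3 below (median 0.13), against 45.6% of all genes above 0, and 2 were above 0 on all 4 arrays, against 6.15%. These 2 were Rab27a and Sytl5. Sytl5 was dim, at percentile 10.3 of mean intensity and well above background on 3 arrays at each age. Stxbp2, a partner of syntaxins, was at 0.48 ± 0.48, Sytl1, a relative of Sytl2, at 0.59 ± 0.65, Rab3d at 0.13 ± 0.46 and Vamp8 at 0.11 ± 0.57 (SD, n = 4 each). None had an unadjusted p below 0.05. A list of 10 genes held factors of the CREB3 family, their stress-sensing relatives, and Mbtps1, Mbtps2, Sec23a and Sec24d, which are not such factors. Of the 10, 5 had a mean above 0 and 5 below (median -0.015), and none had an unadjusted p below 0.05. Sec23a (-0.68), Sec24d (-0.21) and Mbtps2 (-0.075) were among those below 0. Of the factors, Creb3l3 and Atf6 were below 0, and Creb3, Creb3l2, Atf6b and Xbp1 above. Creb3l3, a liver and gut member of the family, was at -0.82 ± 0.93 and Atf6b at 0.31 ± 0.28, while Creb3 was at 0.16 ± 0.18 and Mbtps1, a protease that cuts factors of this family, at 0.045 ± 0.27.

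Of 9 calpain genes besides Capn9, 7 had a mean above 0 and 2 below (median 0.15), against 45.6% of all genes above 0, and 3 were above 0 on all 4 arrays, against 6.15%. These 3 were Capn1, Capns1 and Capn15, the last at percentile 25.6 of mean intensity and at 0.017 on array a. Capn1, the large subunit of a ubiquitous calpain, was at 0.32, 0.68, 0.35 and 0.79 on arrays a, b, e and k (mean 0.53 ± 0.24 SD, n = 4, limma adjusted p = 0.617). It was the only calpain with an unadjusted p below 0.05, against 2.59% of all genes higher at P90. Capns1, the small subunit, was at 0.34 ± 0.43 and Capn5 at 0.30 ± 0.40. Of 8 genes of bestrophin and bicarbonate transport, the setting in which Best2 works, 6 were tested and all 6 had a mean below 0 (median -0.28), against 54.4% of all genes. Of these, Slc4a4 at -0.010 ± 0.18 and Slc9a3 at -0.019 ± 0.24 were close to 0, and Best1 at -0.16 ± 0.25 and Slc26a6 at -0.39 ± 1.02 were within their SD. Car2, a carbonic anhydrase, was at -1.24, -0.35, -0.47 and -1.49 (mean -0.89 ± 0.57 SD, n = 4, limma adjusted p = 0.617), and the chloride channel Cftr at -0.73 ± 0.80. Car2 alone of the 6 had an unadjusted p below 0.05, against 5.31% of all genes lower at P90. A list of 7 genes held membrane mucins and Cdhr5, a brush border cadherin that is not a Muc gene. Of the 7, 5 were tested, 1 with a mean above 0 and 4, all Muc genes, below (median -0.23), against 54.4% of all genes below 0. The 1 above 0 was Cdhr5, at 0.37 ± 0.27 (limma adjusted p = 0.627), while Muc4 was at -0.23 ± 0.28 and Muc13 at -0.088 ± 0.37. Cdhr5 alone of the 5 had an unadjusted p below 0.05, against 2.59% of all genes higher at P90.

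The array medians of fibroblast, adipocyte, smooth muscle and leukocyte genes had a wider spread than those of the members (SD 2.40, 2.42, 0.69 and 0.65 against 0.49). So did those of the distal colon, goblet cell product and endocrine lists (SD 1.72, 0.70 and 0.57). Cell cycle and O-glycosylation genes were about level with the members (SD 0.49 each). The tuft, stem and colonocyte lists had a narrower spread (SD 0.21, 0.13 and 0.23), the last over 3 genes with values. The remaining lists were narrower too. The median of 6 fibroblast genes, all tested, was -3.93 (a), 1.45 (b), -2.32 (e) and -3.22 (k), and that of 5 adipocyte genes was 0.056, 2.65, 5.46 and 0.73. The medians of 7 leukocyte genes were -0.55, 0.96, 0.026 and -0.22, and those of 5 smooth muscle genes 0.31, 0.85, 1.16 and -0.42. Hoxd13 and Hoxb13, which mark the distal end of the colon, were at 4.63 and 1.40 on array a, -4.40 and -2.05 on b, 1.57 and 2.16 on e, and -2.41 and -0.52 on k. Hoxa13, the third gene of that list with a value, was at 0.18 (a), -0.74 (b), -0.15 (e) and 0.12 (k), with the opposite sign on e and k. The part of these other cells and of colon position in the members' values was not tested.

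Within the epithelium, 4 of 6 general markers were saturated on at least 3 arrays in a channel. Of the others, Epcam gave -0.40, 0.16, -0.42 and -0.71 on arrays a, b, e and k. Cdh1, saturated at P30 on 1 array, gave 0.33, 0.35, 0.11 and -0.44. The members' median was highest on array k, where both Epcam and Cdh1 were lowest. Endocrine cells, the secretory relatives of goblet cells, had a median over 6 genes of -0.72 (a), 0.52 (b), -0.11 (e) and 0.42 (k), lowest on array a as for the members. Array a was also the lowest for the fibroblast, adipocyte, leukocyte, colonocyte and cell cycle lists, so this is not particular to secretory cells. The goblet cell products were lowest on b (-0.60), as were the stem and distal colon lists, the tuft list on e and smooth muscle on k. The 5 tuft cell genes stood above 0 on every array by their median (0.62, 0.35, 0.16 and 0.55), and the 6 cell cycle genes below 0 (-1.41, -0.41, -0.86 and -0.35). The part of these cells in the members' values was not tested either.

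**Figure D3:**
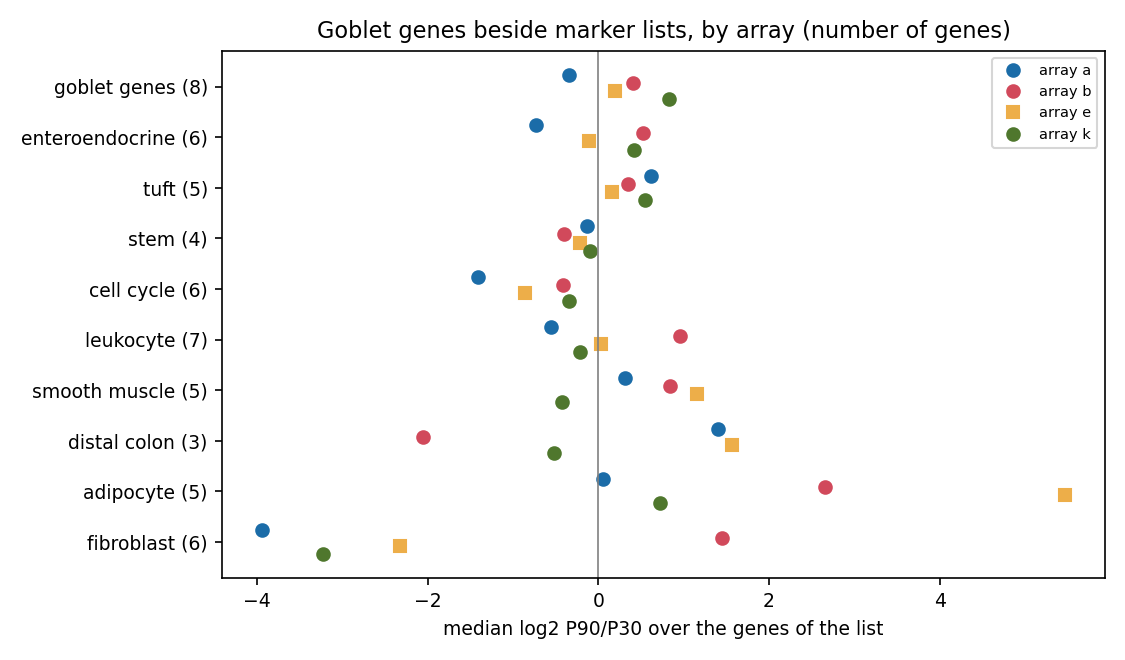
Median log2 ratio of P90 over P30 (x axis) over the genes of each list (y axis, with the number of genes), 1 point per array and a square for the dye swap e. The 8 goblet cell genes lie between -0.35 and 0.83, while fibroblast genes reach -3.93 and adipocyte genes 5.46.

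The sign of a member's mean depended on the processing for 6 of the 8 genes. Over 18 alternatives for each gene, 25 of 144 means had the opposite sign, and in none did a member pass the adjusted threshold (lowest adjusted p = 0.165, for Capn9). Some of these alternatives could not change a member's sign. The filters on dim probes, the removal of saturated spots and the intensity trend left every member's mean as reported. Averaging a gene's probes could move Bcas1 only, and the deposited log ratio and the value table gave nearly the same values. Creb3l1, between 0.15 and 0.85, and Capn9, between 0.18 and 0.74, kept a mean above 0 under all 18. Gfi1 was below 0 under median centring only.

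**Figure D4:**
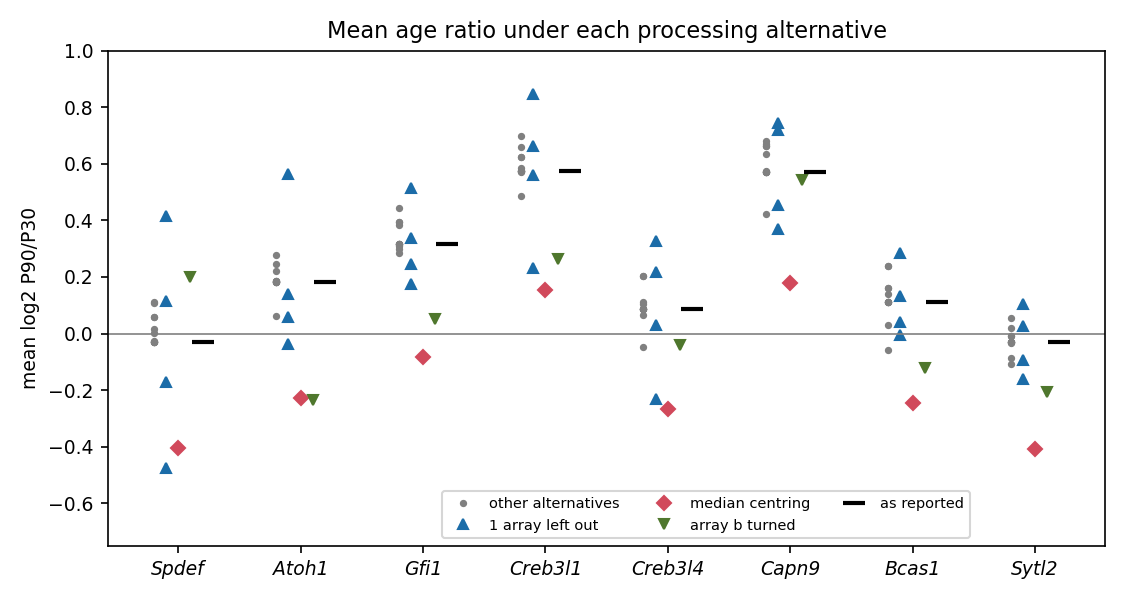
Mean log2 ratio of P90 over P30 (y axis) of each goblet cell gene (x axis) as reported and under each processing alternative, with triangles for 1 array left out, diamonds for median centring and inverted triangles for array b turned. Creb3l1 and Capn9 stay above 0 throughout, and Spdef runs from -0.48 to 0.42 when 1 array is left out.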

How the data were processed

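Per the file headers, the deposited scanner files give linear spot intensity, as median pixel values for each channel and its surroundings, before normalization. The marks for saturation, outliers and background are also taken from the deposited files and have no unit (other). Background had been subtracted from the deposited processed signals, with linear dye scaling, and the deposited ratio is log10 of Cy5 over Cy3, per the file headers. The file headers name Agilent Feature Extraction 10.5.1.1, and the submitters' processing notes version 8.5.1.1. The deposited value table, whose scale, centring and direction its own header leaves unstated, was found to hold log2 of P90 over P30. It matched the deposited log10 ratio, put on the log2 scale and turned by dye, within 0.01 for 80.0%, 87.0%, 86.5% and 80.5% of probes (arrays a, b, e, k). Column medians were 0.21, -0.17, 0.049 and 0.17, with no centring found.

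With limma 3.58.1 (R 4.3.3), normexp background correction (offset 50) preceded loess within each array (span 0.3, weight 0 for control spots). Outlier spots were dropped and saturated spots kept. Ratios were turned to log2 P90/P30. Probes well above background on at least 3 arrays at either age were kept (27055 of 41174), and the brightest probe stood for a gene. Probes were named through RefSeq accessions of GRCm38.p6 (25097 probes), so 13913 of 20825 rows carry a symbol. The mean of 4 arrays was tested against 0 with lmFit and eBayes, with Benjamini-Hochberg adjustment over all 20825 and 95% intervals from the same fit. Of the 4 arrays 3 share a dye orientation, so a dye effect does not cancel in the mean, and a dye term was an alternative. Levels per channel are log2 signals after loess and Aquantile scaling. Genes saturated on at least 3 arrays in a channel (227) were left out of list summaries. Precision is limited by the 4 arrays.

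Named were all members with all their probes, in each list of pathway genes the 2 brightest and the 2 of smallest unadjusted p, the 5 genes nearest to Spdef, and defining genes of the marker lists. Named outside this rule, after their values were seen, were Ern2, Retnlb, Ang4, Epcam, Cdh1, Slc4a4, Slc9a3, Best1 and Slc26a6. So were Sec23a, Sec24d, Mbtps2, Creb3l2, Atf6, Xbp1, Rab27a, Sytl5, Capn15, Cyp3a44 and Cyp3a16. The members and lists were chosen with earlier results of these data known. The fit was tested on simulated data.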

Additional observations from a re-analysis of the deposited data

Results flagged for a closer look

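In 2 of 53 groups of 4 values, 1 array stood far from the others by Dixon's criterion, which chance meets in about 1 in 20 groups. Both were on array k and in genes listed beside the members. Capns1, the small calpain subunit, had a log2 P90/P30 of 0.99 on array k, against 0.14, 0.16 and 0.081 on a, b and e. Rab3d, a GTPase of secretory granules, had 0.81 on array k, against -0.11, -0.15 and -0.047 on a, b and e. No member of the goblet cell set met the criterion.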

How the results depend on the processing

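No gene passed the adjusted threshold as reported, and 2 genes did (Cyp3a44 and Cyp3a16, neither a member) with a normexp offset of 10, with the processed signals then loess, with the deposited log ratio and with the series' value table. In the other alternatives and with any 1 array left out the count was 0. Genes at an unadjusted p below 0.05 numbered 1645 as reported, and 682, 4654, 971 and 999 without arrays a, b, e and k, 4973 with array b turned, 4055 with array weights, 2273 under median centring and 1178 with the value table. The median of the members was 0.15, from 0.049 to 0.39 with 1 array left out, 0.0057 with array b turned and -0.24 under median centring, which moved the median of all genes by -0.19. The mean log2 ratio of a member had the opposite sign in these cases, and the cause was not tested. Under median centring Atoh1 was at -0.23, Bcas1 at -0.24, Creb3l4 at -0.27 and Gfi1 at -0.082. With array b turned Atoh1 was at -0.24, Bcas1 at -0.12, Creb3l4 at -0.041 and Spdef at 0.20. With a dye term Bcas1 was at -0.058, Creb3l4 at -0.047 and Spdef at 0.11. Spdef was at 0.00051 and Sytl2 at 0.019 with an offset of 10, and at 0.016 and 0.056 with the processed signals. Spdef was at 0.059 with the deposited log ratio, 0.059 with the value table and 0.11 with array weights. With 1 array left out, Atoh1 ran from -0.037 to 0.57, Bcas1 from -0.0058 to 0.28, Creb3l4 from -0.23 to 0.33, Spdef from -0.48 to 0.42, Sytl2 from -0.16 to 0.10 and Gfi1, with no change of sign, from 0.18 to 0.51. The other 119 of 144 means kept their sign, some of them under alternatives that could not change a member's mean. The test itself is paired, on ratios within an array, so no other pairing was tried.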

Other observations

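Of 5 tuft cell genes, 5 had a mean above 0, against 45.6% of all genes. Of the 5, 2 had an unadjusted p below 0.05 in limma, both higher at P90, against 2.59% of all genes. Trpm5, the cation channel of tuft cells, had log2 P90/P30 values of 1.03 (a), 0.20 (b), 0.55 (e) and 1.07 (k) (mean 0.71 ± 0.42 SD, n = 4), and Avil, an actin-binding protein of the tuft, of 0.62 (a), 0.36 (b), 0.16 (e) and 1.0 (k) (mean 0.54 ± 0.36 SD, n = 4). Plcg2, at 0.29 ± 0.20, was above 0 on all 4 arrays. Dclk1, at 0.43 ± 0.55, was below 0 on array e (-0.36). Alox5ap, at 0.12 ± 0.71, was below 0 on arrays b (-0.72) and e (-0.063). Of 6 cell cycle genes, 6 had a mean below 0, against 54.4% of all genes. Of the 6, 4 had an unadjusted p below 0.05, against 5.31% of all genes in that direction. Of 4 stem cell genes tested, 1 had an unadjusted p below 0.05, lower at P90, against 5.31% of all genes, and the list median was -0.14. That was Lgr5, with a mean of -0.90 ± 0.22 (SD, n = 4), while Smoc2 was at -0.22 ± 0.34, Axin2 at -0.061 ± 0.33 and Ascl2 at 0.27 ± 0.58. None of these genes passed the adjusted threshold, which 0% of all genes passed.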
